A study of Saccharomyces cerevisiae with 6 samples.

Results

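The 38 genes described here are nuclear genes of budding yeast that encode subunits of the mitochondrial respiratory chain and the ATP synthase. They were chosen by name, as a list of open reading frames, and all 38 were found among the 6225 systematic names of the array. They comprise *NDI1*, 4 subunits of succinate dehydrogenase, 9 subunits of the cytochrome bc1 complex, 2 isoforms of cytochrome c, 9 subunits of cytochrome c oxidase, and 13 genes of the ATP synthase, among them its inhibitor *INH1*.

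In the respiratory chain, electrons from NADH and succinate pass by way of ubiquinone to the cytochrome bc1 complex, from there by way of cytochrome c to cytochrome c oxidase, and then to oxygen. The proton gradient that the bc1 complex and the oxidase build across the inner mitochondrial membrane drives the ATP synthase. Budding yeast lacks the proton-pumping complex I of other eukaryotes and oxidises NADH with single-subunit dehydrogenases such as Ndi1. Glucose represses many of these nuclear genes, which are switched on when the cells exhaust glucose and turn to respiration, and the Hap complex is a known activator of them. Several core subunits of the bc1 complex, the oxidase and the ATP synthase are encoded in mitochondrial DNA and are not among the 38.

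RNA came from wild-type cells, from the *ccr4Δ* mutant, which lacks the cytoplasmic deadenylase subunit Ccr4, and from the *ccr4Δ pbp1Δ* double mutant, which also lacks Pbp1, a protein that binds the poly(A)-binding protein. Each strain was grown at 28°C in YPD, a rich medium with glucose, and harvested once in log phase and once in stationary phase, and each of the 6 conditions was measured on 1 array with 1 colour from 100 ng of total RNA. According to the methods the strains derive from W303, and the strain list gives the wild-type strain 10B as MATα with ade2, trp1, can1, leu2, his3 and ura3 mutations and an ADE2 gene under the HO promoter. The same list gives the *ccr4Δ* strain as MATa with the same 6 mutations and CgLEU2 in place of *CCR4*, and the double mutant is not listed there. The labels do not name the strains of this list that were used for the arrays; if they were these, mating type, the HO promoter construct and LEU2 differ together with *CCR4*. The sources do not say how many clones of a strain were used or whether its growth phases came from 1 culture. Whether fewer cells express a gene or each cell holds less of its mRNA cannot be told apart in these RNA extracts.

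With no replicate arrays, the ratio of 1 array to another carries no test. All 38 genes had 1 probe with 2 spots, well above background on all 6 arrays and unsaturated, and the pooled SD between the spots of a member on 1 array was 0.061 on the log2 scale, which covers spotting and scanning and not the spread between cultures. The labels were checked with the deleted genes: the *CCR4* level of wild-type exceeded that of *ccr4Δ* by at least 108-fold in log phase and 134-fold in stationary phase, and *PBP1* was at least 491-fold and 237-fold higher in *ccr4Δ* than in the double mutant. The a-specific genes had a summed level of 0.242 in wild-type and 17.0 in *ccr4Δ* in log phase, against 0.288 and 7.01 in stationary phase, on a scale where the 75th percentile of an array is 1. The α-specific genes had 23.2 and 0.353 in log phase, against 0.728 and 0.186 in stationary phase. In the double mutant the a-specific genes had 14.1 in log and 2.26 in stationary phase, and the α-specific genes 0.128 and 0.198. By these markers wild-type had the pattern of MATα cells in log phase, and *ccr4Δ* and the double mutant that of MATa cells. The wild-type log phase array lay on slide 1 and the others on slide 2. Slide therefore cannot be told apart from growth phase in the wild-type change, or from strain in log phase ratios to wild-type.

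Levels below are log2 signals of a gene's own probe relative to the 75th percentile of its array, always in the order wild-type, *ccr4Δ*, *ccr4Δ pbp1Δ*. Levels of different genes are not compared, since each probe has its own response. Differences between arrays are log2 ratios, and 1.5-fold was taken as the limit for counting genes.

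From log to stationary phase, 37 of the 38 genes were at least 1.5-fold higher in wild-type, and also in *ccr4Δ* and in *ccr4Δ pbp1Δ*, and none was 1.5-fold lower in any strain. The exception in all 3 strains was *COX5B*, the hypoxic isoform of oxidase subunit V. Without scaling the count in *ccr4Δ* was 33, beside a median over all genes of -0.39. Of the 13 ATP synthase genes, 9 were then past the limit. Among all genes well above background on both arrays, 33.4% were at least 1.5-fold higher and 30.5% lower in wild-type, 29.9% and 26.2% in *ccr4Δ*, and 35.9% and 28.6% in *ccr4Δ pbp1Δ*. The median log2 ratio of the 38 genes was 2.01 (4.04-fold) in wild-type, 1.64 (3.11-fold) in *ccr4Δ* and 2.30 (4.91-fold) in *ccr4Δ pbp1Δ*, beside medians over all genes of 0.05, 0.09 and 0.15. In the additive limma fit of strain and growth phase over the 6 arrays, which takes the 3 strains as the repeats of the growth phase, 37 of the 38 genes rose and none fell at an adjusted p under 0.05, beside 25.7% of 5728 genes that rose and 22.6% that fell. Their log2 differences ran from 1.15 for *ATP16* to 3.56 for *CYC7*, with adjusted p from 0.000729 to 0.0124 in limma. Without either array of the double mutant, which leaves only the wild-type and *ccr4Δ* pairs to carry the phase term, 32 of the 38 passed, beside 13.2% of all genes that rose and 12.2% that fell in the same fit, and the 5 lost were *ATP1*, *ATP2*, *ATP3*, *ATP5* and *ATP16*, with adjusted p in limma from 0.0501 to 0.0994.

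**Figure D1:**
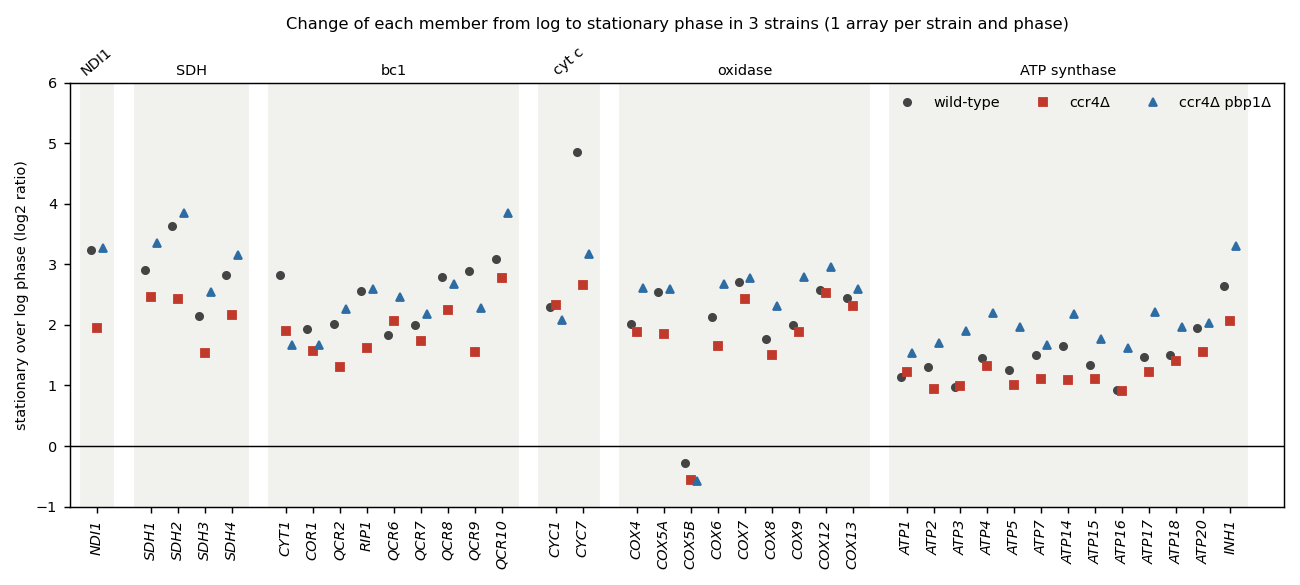
Log2 ratio of stationary over log phase (vertical axis) for each of the 38 genes, grouped by complex along the horizontal axis, with 1 point per strain from 1 pair of arrays. Every gene but *COX5B* lies above 0 in the 3 strains, the ATP synthase genes lie lower than most succinate dehydrogenase and bc1 genes, and *CYC7* in wild-type is the highest point at 4.85.

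The rise was not of one size across the complexes. In wild-type the median log2 ratio was 2.86 for succinate dehydrogenase, 2.56 for the bc1 complex, 2.12 for cytochrome c oxidase and 1.46 for the ATP synthase. In *ccr4Δ* it was 2.29, 1.73, 1.88 and 1.11, and in the double mutant 3.25, 2.28, 2.61 and 1.96. The ATP synthase had the smallest median and succinate dehydrogenase the largest in each strain, under every scaling tried; this order is a description of medians over 4 to 13 genes and was not tested.

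*NDI1* (YML120C), the single-subunit NADH dehydrogenase on the matrix side of the inner membrane, had levels of -0.71, 0.43 and -0.92 in log phase, with 2.52, 2.38 and 2.35 in stationary phase. It was thus highest in *ccr4Δ* among the log phase arrays, while the 3 stationary arrays lay within a narrow range. The rise to stationary phase was 9.41-fold, 3.87-fold and 9.65-fold in the 3 strains, and its log2 difference in the limma fit was 2.82 (SE 0.33, adjusted p = 0.00165).

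Succinate dehydrogenase oxidises succinate in the citric acid cycle and hands its electrons to ubiquinone. *SDH1* (YKL148C), the flavoprotein subunit, had levels of 0.87, 1.62 and 0.99 in log phase, with 3.78, 4.09 and 4.34 in stationary phase. *SDH2* (YLL041C), the iron-sulfur subunit, had 0.15, 1.09 and 0.29 in log phase, with 3.79, 3.52 and 4.15 in stationary phase. The membrane anchor subunit *SDH3* (YKL141W) had 0.95, 1.72 and 1.38 in log phase, with 3.10, 3.25 and 3.92 in stationary phase. All 3 showed the same order in log phase, with *ccr4Δ* highest and wild-type lowest. The other anchor, *SDH4* (YDR178W), followed them with 0.40, 1.41 and 0.90 in log phase, with 3.22, 3.57 and 4.06 in stationary phase. *SDH2* had the largest rise of the complex in wild-type, 12.5-fold, and *SDH3* the smallest, 4.41-fold. In stationary phase the double mutant was the highest of the 3 strains for all 4 genes, and *SDH2* was the one gene lower in *ccr4Δ* than in wild-type.

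The cytochrome bc1 complex passes electrons from ubiquinol to cytochrome c. *CYT1* (YOR065W), which encodes its cytochrome c1, had levels of 0.88, 1.15 and 1.09 in log phase, with 3.70, 3.04 and 2.76 in stationary phase. *RIP1* (YEL024W), the Rieske iron-sulfur protein, had 0.42, 1.32 and 0.84 in log phase, with 2.98, 2.93 and 3.44 in stationary phase. These redox subunits differed in stationary phase, where *CYT1* was highest in wild-type and *RIP1* in the double mutant. The core proteins *COR1* (YBL045C) and *QCR2* (YPR191W) carry no redox group. *COR1* had levels of 1.52, 1.78 and 1.60 in log phase, with 3.46, 3.35 and 3.27 in stationary phase, and *QCR2* had 0.15, 0.88 and 0.44 in log phase, with 2.17, 2.18 and 2.71 in stationary phase. *COR1* differed little between strains, with all 3 stationary levels between 3.27 and 3.46.

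The remaining bc1 genes encode small subunits. *QCR6* (YFR033C), the acidic hinge protein, had levels of 2.49, 2.13 and 1.96 in log phase, with 4.32, 4.20 and 4.42 in stationary phase. Unlike most members it was highest in wild-type in log phase. *QCR7* (YDR529C) had 1.38, 1.82 and 1.80 in log phase, with 3.37, 3.55 and 3.99 in stationary phase, and *QCR8* (YJL166W) had 0.48, 1.33 and 0.95 in log phase, with 3.28, 3.58 and 3.62 in stationary phase. *QCR9* (YGR183C) had 0.37, 1.16 and 0.87 in log phase, with 3.26, 2.72 and 3.16 in stationary phase. All 3 were highest in *ccr4Δ* in log phase, *QCR7* by the narrowest margin, and *QCR9* was lowest in *ccr4Δ* in stationary phase. *QCR10* (YHR001W-A), which is not essential for respiration, had levels of -2.63, -1.47 and -2.04 in log phase, with 0.46, 1.30 and 1.81 in stationary phase. It had the largest rise of the complex, 8.53-fold, 6.81-fold and 14.5-fold, and the smallest in wild-type was that of *QCR6*, 3.56-fold.

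Cytochrome c is the mobile carrier between the bc1 complex and the oxidase, and yeast has a major aerobic form, Cyc1, and a minor form, Cyc7, known to be raised under low oxygen and stress. *CYC1* (YJR048W) had levels of 1.49, 1.14 and 0.92 in log phase, with 3.77, 3.46 and 3.0 in stationary phase. In both phases wild-type was highest and the double mutant lowest. *CYC7* (YEL039C) had levels of -1.88, 0.67 and -0.18 in log phase, with 2.98, 3.33 and 2.99 in stationary phase. In log phase the 3 strains were far apart for *CYC7*, with *ccr4Δ* highest, and in stationary phase they lay between 2.98 and 3.33. *CYC7* therefore rose 28.9-fold, 6.32-fold and 9.01-fold to stationary phase in the 3 strains, and *CYC1* 4.89-fold, 5-fold and 4.23-fold.

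**Figure D2:**
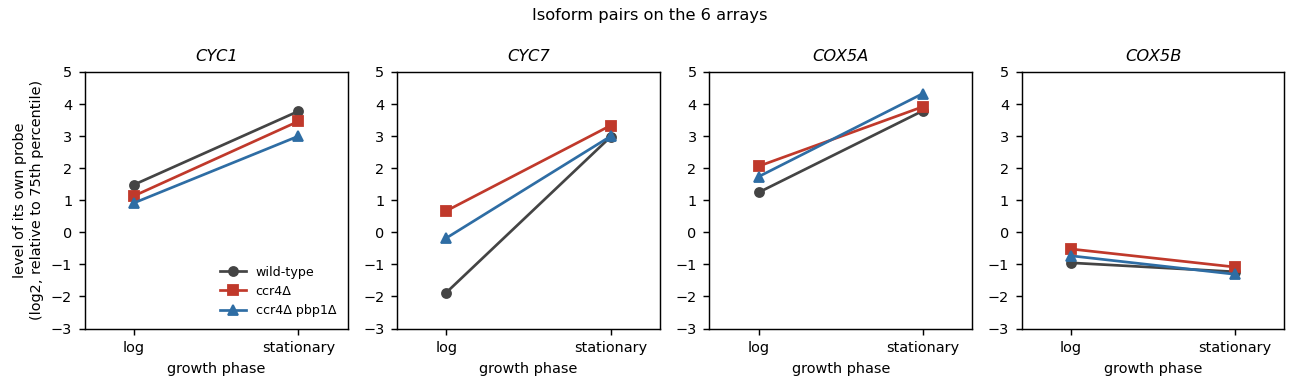
Levels of the cytochrome c isoforms *CYC1* and *CYC7* and of the oxidase subunit V isoforms *COX5A* and *COX5B* in log and stationary phase (vertical axis, log2 signal of the gene's own probe relative to the 75th percentile of the array), with 1 line per strain and 1 array per point. *CYC7* starts at -1.88 in wild-type and 0.67 in *ccr4Δ* and ends near 3 in all strains, while *COX5B* ends lower than it starts in each strain; heights in different panels come from different probes.

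Cytochrome c oxidase reduces oxygen to water, and its nuclear subunits surround a core encoded in mitochondrial DNA. Its subunit V comes in an aerobic form, Cox5a, and a hypoxic form, Cox5b. *COX5A* (YNL052W) had levels of 1.24, 2.06 and 1.74 in log phase, with 3.79, 3.92 and 4.33 in stationary phase, and *COX5B* (YIL111W) had -0.95, -0.52 and -0.73 in log phase, with -1.23, -1.08 and -1.31 in stationary phase. *COX5A* rose by 2.54, 1.85 and 2.59 on the log2 scale in the 3 strains, while the log2 ratios of *COX5B* were -0.28, -0.56 and -0.58. The difference of *COX5B* did not pass in limma (log2 difference -0.47, SE 0.22, adjusted p = 0.126, with adjusted p from 0.0584 to 0.522 when 1 array was left out). Its ratio passed 1.5-fold as lower in *ccr4Δ* and in the double mutant without scaling, after median scaling, after quantile normalization and in the authors' values. With *ACT1* as the reference of each array *COX5B* was above 0 in wild-type and in *ccr4Δ*; *ACT1* itself had levels of 3.99, 3.65 and 3.60 in log phase, with 1.64, 2.96 and 3.16 in stationary phase.

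*COX4* (YGL187C), an essential subunit of the oxidase, had levels of 0.23, 0.36 and 0.28 in log phase, with 2.23, 2.23 and 2.89 in stationary phase. *COX6* (YHR051W) had 1.27, 1.30 and 0.97 in log phase, with 3.40, 2.96 and 3.65 in stationary phase. For both, *ccr4Δ* differed little from wild-type in log phase and the double mutant was highest in stationary phase. *COX7* (YMR256C) had 1.54, 1.99 and 1.82 in log phase, with 4.25, 4.42 and 4.60 in stationary phase, *COX8* (YLR395C) had 0.59, 0.87 and 0.84 in log phase, with 2.35, 2.37 and 3.15 in stationary phase, and *COX9* (YDL067C) had 0.56, 1.01 and 0.65 in log phase, with 2.55, 2.90 and 3.45 in stationary phase. These small membrane subunits were all highest in *ccr4Δ* in log phase and in the double mutant in stationary phase. *COX12* (YLR038C), a subunit on the intermembrane space side, had 0.22, 0.26 and 0.19 in log phase, with 2.79, 2.79 and 3.15 in stationary phase, and *COX13* (YGL191W) had 1.76, 2.04 and 2.03 in log phase, with 4.20, 4.35 and 4.62 in stationary phase. *COX12* was nearly level among the strains in log phase, and its rise of 5.94-fold in wild-type was exceeded in the complex by *COX7* (6.55-fold).

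The ATP synthase has a catalytic F1 head, of which 5 subunits are members. *ATP1* (YBL099W), the α subunit, had levels of 2.78, 2.89 and 2.82 in log phase, with 3.93, 4.11 and 4.34 in stationary phase, and *ATP2* (YJR121W), the β subunit that holds the catalytic sites, had 2.24, 2.87 and 2.58 in log phase, with 3.55, 3.81 and 4.29 in stationary phase. *ATP3* (YBR039W), the γ subunit of the rotating shaft, had 2.05, 2.10 and 1.95 in log phase, with 3.03, 3.09 and 3.85 in stationary phase. The catalytic pair and the shaft were all highest in the double mutant in stationary phase. *ATP16* (YDL004W), the δ subunit, had 0.70, 0.94 and 0.84 in log phase, with 1.64, 1.86 and 2.46 in stationary phase, and *ATP15* (YPL271W), the ε subunit, had 1.71, 2.17 and 1.96 in log phase, with 3.04, 3.27 and 3.73 in stationary phase. *ATP16* had the smallest rise among the 37 genes in wild-type, 1.91-fold.

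The peripheral stalk holds the F1 head in place while the shaft turns. *ATP4* (YPL078C), subunit b, had levels of 0.66, 0.90 and 0.69 in log phase, with 2.13, 2.23 and 2.89 in stationary phase. *ATP5* (YDR298C), the subunit that confers oligomycin sensitivity, had 0.22, 0.56 and 0.48 in log phase, with 1.48, 1.56 and 2.44 in stationary phase. *ATP7* (YKL016C), subunit d, had 1.94, 2.66 and 2.39 in log phase, with 3.45, 3.77 and 4.06 in stationary phase. All 3 were highest in the double mutant in stationary phase, and *ATP5* had the largest difference between the double mutant and *ccr4Δ* there, 0.88. *ATP14* (YLR295C), subunit h, had -0.85, -0.05 and -0.44 in log phase, with 0.80, 1.05 and 1.75 in stationary phase. In log phase *ATP14* was highest in *ccr4Δ* and lowest in wild-type.

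Small subunits of the membrane part and the inhibitor complete the set. *ATP17* (YDR377W), subunit f, had levels of 1.53, 1.81 and 1.67 in log phase, with 3.01, 3.03 and 3.89 in stationary phase. *ATP18* (YML081C-A), a small membrane subunit, had 1.16, 1.1 and 1.14 in log phase, with 2.66, 2.50 and 3.10 in stationary phase. *ATP20* (YPR020W), subunit g, which takes part in dimer formation, had 0.35, 0.82 and 0.62 in log phase, with 2.30, 2.37 and 2.65 in stationary phase. *ATP18* was the one member slightly higher in the double mutant than in *ccr4Δ* in log phase, by 0.04. *INH1* (YDL181W), whose product blocks ATP hydrolysis by the enzyme, had -0.84, -0.59 and -1.13 in log phase, with 1.80, 1.47 and 2.18 in stationary phase. *INH1* had the largest rise of the group, 6.21-fold, 4.19-fold and 9.89-fold in the 3 strains.

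The change to stationary phase was smallest in *ccr4Δ* among the 3 strains for 32 of the 38 genes, and it was largest in the double mutant for 31 and in wild-type for 6. No such counts over all genes are given here. Over all genes the 10th to 90th percentiles of this change also lay closest together in *ccr4Δ*, from -1.44 to 1.41. They ran from -1.70 to 1.78 in wild-type and from -1.79 to 1.78 in the double mutant. The count of 32 lay between 26 and 36 under the other scalings, and it was not set against a count over all genes. The count of 31 depended on the scaling: without scaling the double mutant was largest for 21 genes and wild-type for 17, and with *ACT1* as the reference wild-type was largest for all 38.

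In log phase, *ccr4Δ* was at least 1.5-fold higher than wild-type for 15 of the 38 genes and lower for 0, beside 13.6% of 5765 genes higher and 15.9% lower. The median log2 ratio was 0.44 (1.36-fold), beside -0.07 over all genes, and 35 of 38 were above 0, beside 44.6% of all genes. The 15 genes were *NDI1*, all 4 SDH genes, *CYC7*, *COX5A*, *ATP2*, *ATP7* and *ATP14*, and the bc1 genes *QCR2*, *RIP1*, *QCR8*, *QCR9* and *QCR10*. The highest ratio was that of *CYC7* (log2 2.55, 5.84-fold), followed by *QCR10* (1.16) and *NDI1* (1.14). The genes below 0 were *QCR6* (-0.36), *CYC1* (-0.35) and *ATP18* (-0.06).

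By complex the log phase medians were 0.85 for succinate dehydrogenase, 0.73 for the bc1 complex, 0.28 for the oxidase and 0.28 for the ATP synthase. The SDH genes lay close together, from 0.76 for *SDH1* to 1.01 for *SDH4*. The bc1 genes were spread widely, from -0.36 for *QCR6* to 1.16 for *QCR10*. In the oxidase *COX5A* was highest (0.82) and *COX6* lowest (0.03), and in the ATP synthase *ATP14* was highest (0.80) and *ATP18* lowest. With *ACT1* as the reference 28 genes were past the limit in place of 15. That reference also moved the median over all genes, from -0.07 to 0.27.

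Genes known to be induced in stationary phase, most of which code for stress proteins, also differed in this comparison. Of 11 on the array, 10 were well above background on both log phase arrays. In *ccr4Δ* 9 of these 10 were past 1.5-fold as higher and 1 as lower, beside 13.6% and 15.9% of all genes. Their median log2 ratio was 1.75, with a range from -1.11 for *SPI1* to 3.97 for *HSP26*. The summed level of the 11 genes in log phase was 3.34 in wild-type, 9.88 in *ccr4Δ* and 3.52 in the double mutant, and all 3 stationary arrays lay between 38 and 40.1. *SIP18* was not well above background in wild-type in log phase. The part of growth stage in the ratios of the 38 genes was not tested, and mating type, slide and the deletion cannot be told apart in this pair of arrays.

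In stationary phase the same strains differed less for these genes. The members had a median of 0.09 (log2, *ccr4Δ* over wild-type), beside -0.08 over all genes, with 26 of 38 above 0, beside 46.5% of all genes. *QCR10* was the one gene at least 1.5-fold higher (log2 0.84) and *CYT1* the one gene lower (-0.66), 1 of 38 each, beside 22.6% of 6034 genes higher and 29.1% lower. The medians were 0.23 for succinate dehydrogenase, -0.04 for the bc1 complex, 0.13 for the oxidase and 0.10 for the ATP synthase. The lowest and highest genes were *SDH2* (-0.27) and *SDH4* (0.36) in the first, *CYT1* and *QCR10* in the bc1 complex, *COX6* (-0.44) and *COX9* (0.35) in the oxidase, and *INH1* (-0.32) and *ATP7* (0.32) in the ATP synthase. The sign of the median depended on the scaling: it was -0.31 without scaling, with 1 gene above 0, and -1.23 with *ACT1* as the reference, with 0 above 0 and *QCR10* at -0.48.

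**Figure D3:**
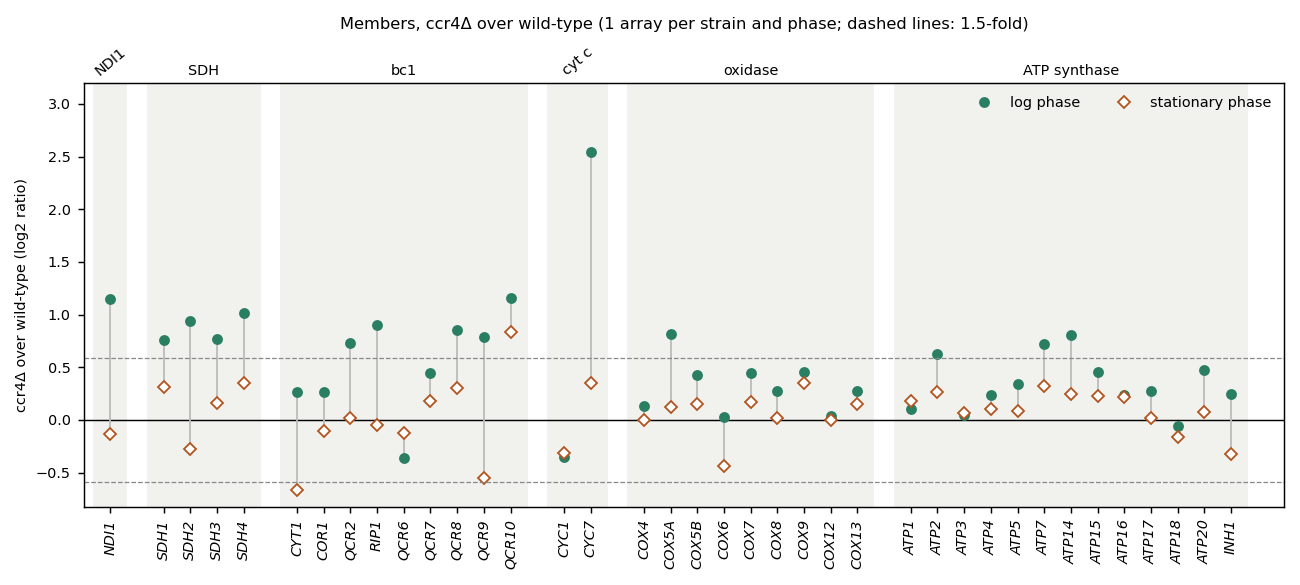
Log2 ratio of *ccr4Δ* over wild-type (vertical axis) for each gene, grouped by complex along the horizontal axis, in log phase (filled circles) and stationary phase (open diamonds), with 1 pair of arrays per phase and dashed lines at 1.5-fold. The log phase value lies above the stationary value for 34 of the 38 genes, and *NDI1*, *SDH2*, *QCR9* and *CYC7* show the widest gaps.

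The ratio was higher in log than in stationary phase for 34 of the 38 genes, and for 28 to 38 of them under the other scalings. No such count over all genes is given here, and their medians in log and stationary phase were -0.07 and -0.08. Only the wild-type log phase array lay on slide 1, so growth phase and slide cannot be told apart in this difference. In the limma fit, which averages the strain difference over the growth phases, 0 of the 38 genes passed in either direction for *ccr4Δ* over wild-type, beside 0.0524% of 5728 genes that passed as higher and 0.122% as lower. At an unadjusted p under 0.05 there were 2 of the 38, *QCR10* (log2 difference 1.0, adjusted p = 0.225 in limma) and *CYC7* (1.45, adjusted p = 0.237), and 1085 of all genes. Without the wild-type stationary array *CYC7* passed in limma (log2 difference 2.42, SE 0.31, adjusted p = 0.0148), beside 0.96% of all genes that passed as higher and 0.628% as lower. Wild-type is then the log phase array alone, so that this value rests on the log phase ratio given above, and wild-type is assumed to vary like the other strains.

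Between the double mutant and *ccr4Δ* the direction of the ratios differed between the phases. In log phase the median log2 ratio of *ccr4Δ pbp1Δ* over *ccr4Δ* was -0.22, beside 0.01 over all genes. Of the 38 genes 37 were below 0 and 1 above, beside 51.5% of 5916 genes above 0. The number above 0 depended on the scaling: it was 11 without scaling, 6 after median scaling and 0 after quantile normalization. *NDI1* (-1.36), *CYC7* (-0.85), *SDH2* (-0.80) and *SDH1* (-0.63) were at least 1.5-fold lower, 4 of 38, and 0 were higher, beside 7% of 5916 genes lower and 1.52% higher. The medians were -0.57 for succinate dehydrogenase, -0.28 for the bc1 complex, -0.17 for the oxidase and -0.20 for the ATP synthase. All 11 stationary phase genes were at least 1.5-fold lower in the double mutant in this pair of arrays, with a median of -1.5, and their part in the ratios was not tested. This comparison shares the *ccr4Δ* array with the one above, so the 2 sets of log phase ratios are not independent of each other. For *NDI1* they were 1.14 and -1.36, for *CYC7* 2.55 and -0.85, and for *CYC1* -0.35 and -0.22.

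In stationary phase the median log2 ratio of *ccr4Δ pbp1Δ* over *ccr4Δ* was 0.47 (1.38-fold), beside 0.04 over all genes. Of the 38 genes 32 were above 0, beside 53.9% of all genes. In this pair 13 of the 38 genes were at least 1.5-fold higher and 0 lower, beside 10.4% of 5880 genes higher and 10.8% lower. Of these 13, 8 were ATP synthase genes: *ATP5* (0.88), *ATP17* (0.86), *ATP3* (0.76), *INH1* (0.70), *ATP14* (0.70), *ATP4* (0.66), *ATP16* (0.60) and *ATP18* (0.60). All 13 ATP synthase genes were above 0, with a median of 0.60. The others past the limit were *COX8* (0.78), *COX6* (0.69) and *COX4* (0.65) of the oxidase, and *SDH3* (0.67) and *SDH2* (0.63).

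Median ratios were 0.56 for succinate dehydrogenase, 0.43 for the bc1 complex and 0.41 for the oxidase, and no bc1 gene passed the limit. The 6 genes below 0 were *CYC1* (-0.46), *CYC7* (-0.34), *CYT1* (-0.28), *COX5B* (-0.23), *COR1* (-0.08) and *NDI1* (-0.04), which hold both cytochrome c genes and that of cytochrome c1. The stationary phase genes had a median of -0.08 here. The number past the limit moved with the scaling, to 24 without scaling, 8 after quantile normalization and 2 with *ACT1* as the reference. The median over all genes was then 0.27, 0.05 and -0.16, in the same order.

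**Figure D4:**
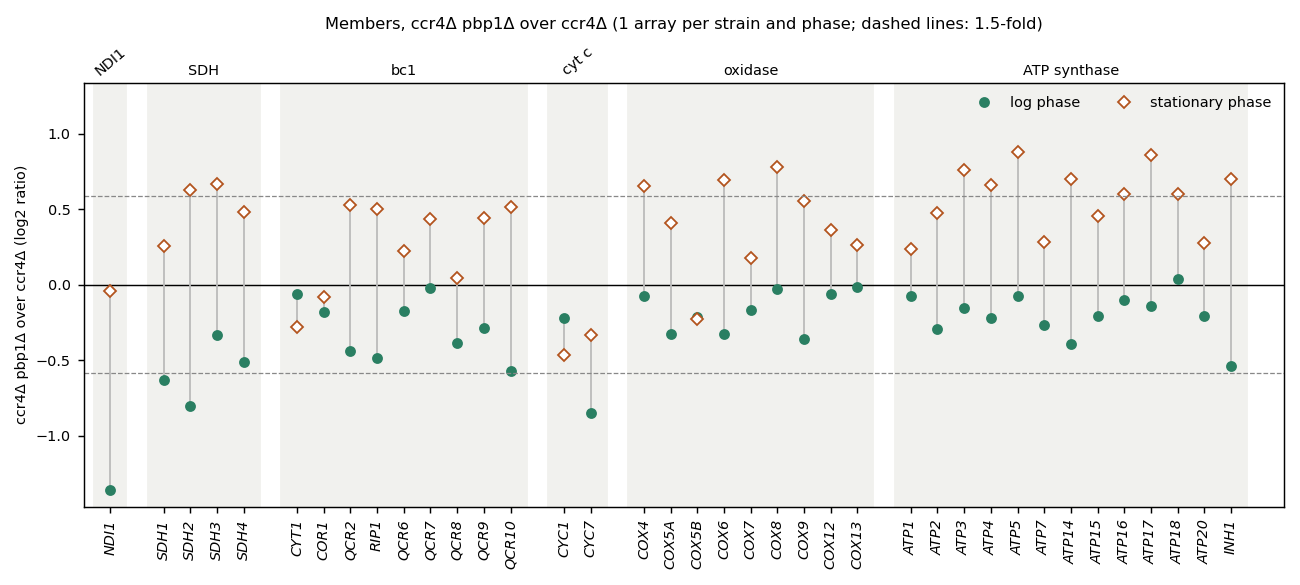
Log2 ratio of *ccr4Δ pbp1Δ* over *ccr4Δ* (vertical axis) for each gene, grouped by complex along the horizontal axis, in log phase (filled circles) and stationary phase (open diamonds), with 1 pair of arrays per phase and dashed lines at 1.5-fold. For 31 of the 38 genes the log phase value is below 0 and the stationary value above 0, and the cytochrome c genes, *CYT1*, *COR1*, *COX5B* and *NDI1* stay below 0 in both.

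For 31 of the 38 genes the ratio was below 0 in log phase and above 0 in stationary phase, and for 25 to 31 under the other scalings. The share of all genes with this pattern is not given here. Of all genes 51.5% were above 0 in log phase and 53.9% in stationary phase. The widest gaps between the phases were those of *SDH2* (1.43), *NDI1* (1.32) and *INH1* (1.24). In the limma fit 0 of the 38 genes passed in either direction for *ccr4Δ pbp1Δ* over *ccr4Δ*, and 0% of the 5728 genes passed as higher and 0% as lower. At an unadjusted p under 0.05 there were 0 of the 38 and 120 of all genes, and the fit averages over phases in which most members went opposite ways.

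Genes that work with these complexes were described from lists of known function. Of 10 other subunits and paralogs, 9 were on the array and *COX26* was not found there. In the limma fit 7 of the 9 rose in stationary phase and none fell, beside 25.7% and 22.6% of all genes. The largest ratio was that of *SDH9*, a paralog of *SDH1*, with log2 ratios of 5.08, 3.43 and 5.34 in the 3 strains, and the rise of *SHH3*, a paralog of *SDH3*, was 4.97, 2.78 and 4.58. Their levels in wild-type in log phase were -5.91 and -5.13, where the lowest level well above background was -7.73. *RCF1*, a factor of respiratory supercomplexes, had -0.25, 0.68 and 1.11. The paralog *SHH4* had 1.53, 1.74 and 2.54, while the lowest SDH gene in wild-type, *SDH3*, had 2.14. The list thus ranged from *SDH9* and *SHH3*, with larger rises than any SDH member, to a supercomplex factor with a ratio below 0 in wild-type. In log phase 5 of the 9 were at least 1.5-fold higher in *ccr4Δ* than in wild-type, beside the 13.6% of all genes, with ratios from *SHH4* (-0.33) to *STF1* (1.37), a stabilising factor of the inhibited ATP synthase.

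The 36 assembly factors, which insert cofactors or join subunits without being part of the complexes, gave other medians than the 38 genes, a difference that was not tested. Their median log2 ratio of stationary over log phase was 0.26 in wild-type, 0.90 in *ccr4Δ* and 1.33 in the double mutant. In the limma fit 18 of the 36 rose and 0 fell, beside 25.7% and 22.6% of all genes. In wild-type 14 of the 36 were at least 1.5-fold higher and 4 lower, beside 33.4% and 30.5% of all genes. The factors ran from *PNT1* (-1.06) to *ATP10* (3.58) there. The *ATP10* level in wild-type in log phase was -6.17, where the lowest level well above background was -7.73. Between *ccr4Δ* and wild-type they had a median of 0.60 in log phase, with 18 of 36 at least 1.5-fold higher and 0 lower, beside 13.6% and 15.9% of all genes, between *COX19* (-0.47) and *SDH6* (1.60). In stationary phase their median was 1.18, with 27 of 36 higher and 2 lower, beside 22.6% and 29.1% of all genes and 1 and 1 of the 38 members in the same pair of arrays. *PET117* (2.61), an assembly factor of the oxidase, was highest there, and *ATP10* (-2.06), a factor of the ATP synthase, was lowest. With *ACT1* as the reference that median was -0.14, with 4 higher and 11 lower; under the other scalings it was 0.78 to 1.27. In *ccr4Δ pbp1Δ* over *ccr4Δ* their medians were -0.29 in log phase and 0.10 in stationary phase.

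**Figure D5:**
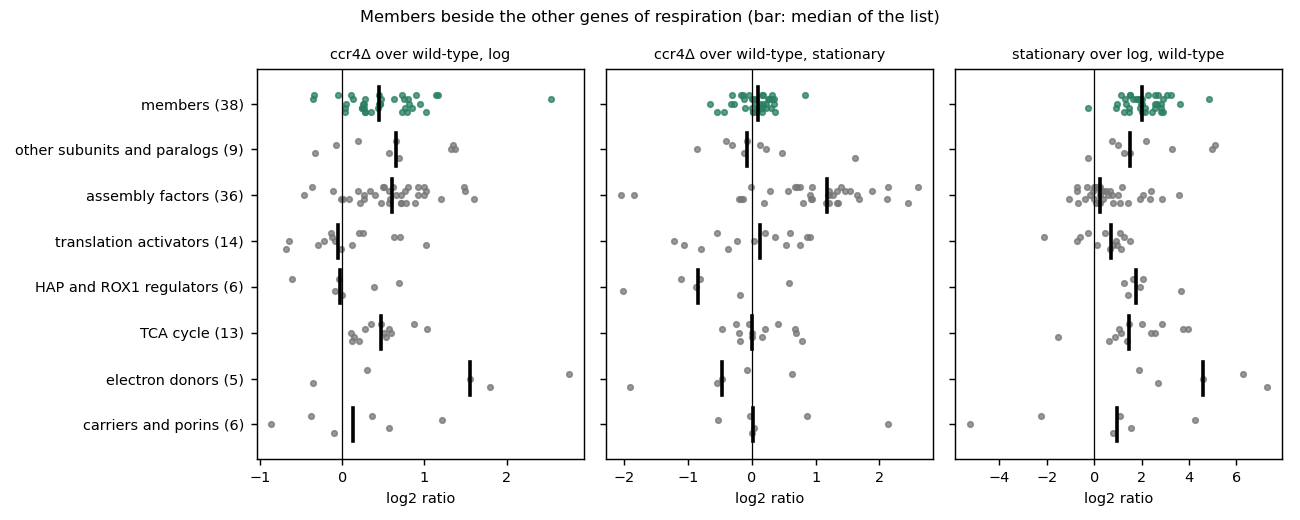
Log2 ratios (horizontal axes) of the 38 members and of the genes of 7 lists (rows, with the number of genes on the array), for *ccr4Δ* over wild-type in each growth phase and for stationary over log phase in wild-type, with 1 point per gene from 1 pair of arrays and a bar at the median. The members lie around 0.09 in the middle panel where the assembly factors lie around 1.18, and around 2.01 in the right panel where the assembly factors lie around 0.26.

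The activators of the cytochrome genes rose in stationary phase: all 5 HAP genes and *ROX1*, a repressor of hypoxic genes, passed in limma. Of all genes 25.7% rose in that fit. *HAP4*, which carries the activation domain of the Hap complex, had levels of -0.15, -0.24 and -0.26 in log phase, with 3.53, 1.5 and 1.67 in stationary phase. Its level in stationary phase was thus highest in wild-type, and *ccr4Δ* differed from wild-type there by -2.02 (log2 ratio). *HAP1*, a heme-responsive activator, had -1.36, -1.41 and -1.28 in log phase, with 0.26, -0.56 and -0.60 in stationary phase. *HAP2* had -2.13, -1.45 and -1.82 in log phase, with -0.86, -0.27 and -0.30 in stationary phase, and *HAP3* had -1.31, -0.92 and -0.81 in log phase, with 0.61, -0.27 and 0.31 in stationary phase. These DNA-binding subunits differed from each other in stationary phase, where *ccr4Δ* was above wild-type for *HAP2* and below it for *HAP3*. *HAP5* had -2.88, -2.89 and -3.17 in log phase, with -1.45, -1.64 and -0.80 in stationary phase, and *ROX1* had -0.39, -1.01 and -0.59 in log phase, with 1.65, 0.54 and 0.19 in stationary phase. Of the 6 regulators, 4 were at least 1.5-fold lower in *ccr4Δ* than in wild-type in stationary phase and 0 higher, beside 29.1% and 22.6% of all genes. Their median there was -0.84, and it stayed below 0 under every scaling tried. In log phase 1 regulator was higher and 1 lower, beside 13.6% and 15.9% of all genes.

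The 14 translation activators, which act on mRNAs made in the mitochondrion, had a median stationary ratio of 0.72 in wild-type, with *PET122* lowest (-2.10) and *PET494* highest (1.52). In limma 5 of the 14 rose and 1 fell, beside 25.7% and 22.6% of all genes. For *ccr4Δ* over wild-type, 3 of 14 were higher and 2 lower in log phase, beside 13.6% and 15.9% of all genes, between *AEP1* (-0.69) and *CBT1* (1.02), and 4 were higher and 3 lower in stationary phase, beside 22.6% and 29.1%, between *ATP22* (-1.23) and *CBS2* (0.91). Of 13 citric acid cycle genes, 11 rose in limma, beside 25.7% of all genes, and the wild-type ratio was highest for *CIT3* (3.97). All 13 were higher in the *ccr4Δ* log phase array than in the wild-type one, beside 44.6% of all genes. Of the 13, 3 were past the limit, beside 13.6% of all genes. Their median was 0.47, from *KGD2* (0.10) to *CIT3* (1.03), and in stationary phase it was 0.01, from *KGD1* (-0.47) to *IDH1* (0.79). The medians of the 38 members in these comparisons were 0.44 and 0.09.

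All 5 electron donors other than the members rose in stationary phase in limma, beside 25.7% of all genes. *NDE2*, an external NADH dehydrogenase, had log2 ratios of 6.30, 4.17 and 4.71 in the 3 strains, and *CYB2*, the lactate dehydrogenase that feeds cytochrome c directly, had 7.31, 3.60 and 4.10. *NDE2* and *CYB2* rose more in wild-type than the SDH genes did in any strain. The *NDE2* level in wild-type in log phase was -7.28, close to the lowest level well above background on that array, -7.73. In log phase *ccr4Δ* was higher than wild-type for *NDE2* (2.76), *CYB2* (1.80) and *GUT2* (1.56), the mitochondrial glycerol 3-phosphate dehydrogenase, and the lowest was *DLD1* (-0.36). In stationary phase the ratios ran from -1.91 for *CYB2* to 0.64 for *NDE2*. Of the 6 carriers and porins, 4 rose and 2 fell in limma, beside 25.7% and 22.6% of all genes. *AAC1*, an ADP/ATP carrier, was highest in wild-type (4.25) and *AAC3*, its hypoxic relative, lowest (-5.25). The ratio of *ccr4Δ* to wild-type for *AAC3* was -0.87 while growing and 2.14 in stationary phase. The *AAC3* level in wild-type in stationary phase was -7.59, where the lowest level well above background was -9.15.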

How the data were processed

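RNA of the 3 strains in each growth phase was hybridised, 1 array per condition, to Agilent yeast arrays of design 016322 (annotation build sacCer2, used for no coordinates). The deposited scanner output gives an intensity per spot from Feature Extraction 11.0.1.1, already corrected for background, and the authors also deposited processed intensities in 1 table. The sorted values of that table are identical in all 6 arrays, so it is quantile-normalized. Of its 6316 rows, 6256 matched a probe.

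Control and outlier-flagged spots were removed, and each processed signal was expressed as log2 minus the 75th percentile of its array, with spots of a probe and probes of a gene averaged. The 75th percentile of the signal ranged from 10689 to 16412, and 92.7% to 98.4% of the probes were well above background. With 1 array per condition the number of arrays limits the precision. Ratios between 2 arrays were counted at 1.5-fold among the genes that both arrays measured well above background. An additive model of strain and growth phase was fitted with limma 3.58.1 (lmFit, eBayes; R 4.3.3) to the 5728 genes that passed the background criterion on every array. It has 2 residual degrees of freedom, p-values were adjusted after Benjamini-Hochberg with a threshold of 0.05, and the code was tested on simulated data. The growth phases of a strain stand in for repeats of the strain and the strains for repeats of the phase. Whether these are independent cultures is not stated, so p-values measure the spread between these arrays. Other steps used Python 3.11.15 and pandas 2.3.3. Symbols were taken from RefSeq (assembly R64), which lists all 38 members.

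The members and lists were chosen with earlier results of these data known. The rule for named genes was all members by complex, the highest and lowest gene of each pathway list, all HAP and *ROX1* regulators, and *CCR4*, *PBP1* and the mating type markers as checks. For the pathway lists the highest and lowest genes are given for the main comparisons. The result of 1 gene of the citric acid cycle list is not reported here. Alternatives were *ACT1* as the reference, median scaling, no scaling, quantile normalization, the authors' processed values, normexp (offset 50), the brightest probe, a 2-fold limit, no filter on dim probes, the slide as a block, a trended prior, and leaving out each array. Normexp used the median signal, as the tables used here hold no mean signal. A planned motif count in promoters and a comparison of isoform proteins needed sequences and were not run.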

Additional observations from a re-analysis of the deposited data

Results flagged for a closer look

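The following ratios had opposite signs in log and stationary phase, with 1 pair of arrays in each phase, and the difference between the phases was not tested. In *ccr4Δ* over wild-type, the median of the bc1 complex was 0.73 while cells grew and -0.04 at stationary phase, which differ by -0.77. Growth phase and slide cannot be told apart in this difference, since only the wild-type log phase array lay on slide 1. The stationary value was smaller than the pooled SD between spots, 0.061, with 4 bc1 genes above 0 and 5 below. It was above 0 after median scaling, after quantile normalization and in the authors' processed values. Without scaling it was -0.44, and with *ACT1* as the reference -1.36.

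In *ccr4Δ pbp1Δ* over *ccr4Δ* the median of all 38 genes was -0.22 in log and 0.47 in stationary phase, which differ by 0.69. By complex the differences were 1.13 for succinate dehydrogenase (-0.57 and 0.56), 0.72 for the bc1 complex (-0.28 and 0.43), 0.58 for the oxidase (-0.17 and 0.41) and 0.80 for the ATP synthase (-0.20 and 0.60). *SDH2* was the one gene past 1.5-fold in both directions, with -0.80 in log and 0.63 in stationary phase, which differ by 1.43. The stationary phase genes had medians of -1.5 and -0.08 in the same pairs of arrays, and their part in these differences was not tested.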

How the results depend on the processing

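Each result was recomputed with 1 choice changed. Shares of all genes past 1.5-fold under the other scalings, or past 2-fold, are not given here beside the counts of members. For *ccr4Δ* over wild-type in log phase the median of 0.44 became 0.51 in the authors' values and after quantile normalization, and 0.79 with *ACT1* as the reference, which put 28 genes past 1.5-fold; 4 passed a 2-fold limit. In stationary phase the median of 0.09 became -0.31 without scaling (0 higher, 6 lower), 0.17 after median scaling (0 lower), 0.23 after quantile normalization (3 higher, 0 lower), 0.23 in the authors' values (2 higher, 0 lower) and -1.23 with *ACT1* as the reference (0 higher, 37 lower); *QCR10* reversed to -0.48 there, and 0 genes passed a 2-fold limit in either direction. For *ccr4Δ pbp1Δ* over *ccr4Δ* in log phase the median of -0.22 became -0.077 without scaling and -0.15 after median scaling, and 1 gene passed a 2-fold limit as lower. In stationary phase the median of 0.47 became 0.69 without scaling (24 higher), 0.23 after quantile normalization (8 higher), 0.23 in the authors' values (8 higher) and 0.27 with *ACT1* as the reference (2 higher, 1 lower), and 0 passed a 2-fold limit as higher. For stationary over log phase in wild-type the median of 2.01 became 1.93 without scaling, 1.84 after median scaling, 2.37 after quantile normalization, 4.37 with *ACT1* as the reference and 2.40 in the authors' values. In *ccr4Δ* the median of 1.64 became 1.16, 1.59, 2.17, 2.33 and 2.22, and in the double mutant that of 2.30 became 1.91, 2.23, 2.66, 2.74 and 2.70, in the same order. In *ccr4Δ* and in the double mutant, 1 gene, *COX5B*, was past the limit as lower without scaling, after median scaling, after quantile normalization and in the authors' values.

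No scaling, median scaling and *ACT1* shift all genes alike: the median of all genes in *ccr4Δ* over wild-type in stationary phase was -0.08 in the main setting, -0.48 without scaling and -1.40 with *ACT1*, and in stationary over log phase in wild-type it was 0.05 and, with *ACT1*, 2.40. Relative to the median of all genes, the members stood at 0.52 to 0.56 and 0.15 to 0.24 for *ccr4Δ* over wild-type in log and stationary phase, at -0.31 to -0.22 and 0.18 to 0.44 for *ccr4Δ pbp1Δ* over *ccr4Δ*, and at 1.97 to 2.52, 1.55 to 2.21 and 2.15 to 2.67 for stationary over log phase in wild-type, *ccr4Δ* and the double mutant, over all settings. In the limma fit, leaving out 1 array gave 32 to 37 members higher in stationary phase, 0 to 1 higher in *ccr4Δ* over wild-type, and 0 to 0 in the other directions and for *ccr4Δ pbp1Δ* over *ccr4Δ*. In the same fits 1451 to 3243 of all genes were called for the phase, 17 to 1461 for *ccr4Δ* over wild-type and 0 to 18 for *ccr4Δ pbp1Δ* over *ccr4Δ*. The slide as a block equals leaving out the wild-type log phase array and raised the calls among all genes for *ccr4Δ* over wild-type from 10 to 1461, with 0 among the members. The members' numbers of calls in the fit were the same without scaling, after median scaling, after quantile normalization, in the authors' values, with normexp, the brightest probe, no filter and a trended prior; *ACT1* as the reference was not run in the fit. With no replicate arrays, differences of the size of those between strains cannot be set against the spread between cultures. The labels give no replicate numbers to pair, and the additive fit already compares the phases within each strain.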
